A study of Mus musculus with 6 samples.

Results

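The motile cilium is the beating, hair-like organelle of ependymal cells, airway cells and sperm tails, and its microtubule core, the axoneme, is built from parts that most brain cells do not need. This report follows 60 genes of that axoneme, out of 19943 genes with a symbol in the deposited tables, in the medial prefrontal cortex of C57BL/6 mice. They were chosen by symbol: the dynein heavy chain genes (Dnah), the intermediate chain genes Dnai1 and Dnai2, the dynein assembly factor genes (Dnaaf), the cilia and flagella associated protein genes (Cfap), the nexin-dynein regulatory complex genes (Drc), tektins (Tekt) and radial spoke head genes (Rsph). Foxj1, Hydin, Ak7 and the Spag6, Spag16 and Spag17 names were added, and Dnai1 and Dnai2 gave no entry. The group was proposed after differences between these libraries had been seen, among them that of Tekt1, so the values below describe it and its p-values are no independent evidence.

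The study compared 3 control libraries with 3 libraries of mice isolated after weaning for 3 weeks, to ask how early isolation alters gene expression in this part of the frontal cortex. All 6 mouse samples carry the strain C57BL/6 and an age of 6 weeks in the labels, while the design text gives 7 weeks. Nothing in the labels ties each library to an animal of its own, and the spread behind the p-values, which is that between libraries, may be technical. They name no batch or date either.

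Motile cilia beat because dynein motors, held in outer and inner arms, slide neighbouring doublet microtubules. Radial spokes, the central pair and the nexin-dynein regulatory complex turn that sliding into bending. The forkhead factor Foxj1 switches on much of this set in cells that make motile cilia. In the brain these are chiefly the ependymal cells that line the ventricles, while cortical neurons carry a single immotile primary cilium.

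Depth was even, with 18226448 to 18606573 expected counts per library, which are estimates of how many reads each gene gave. Levels are given as CPM, a gene's count relative to the TMM-scaled library size, in which 1 count is worth about 0.0542 CPM. Cortical tissue was evident in every library, with the excitatory neuron genes Slc17a7 at 1563 to 1984 CPM, Tbr1 at 151 to 209 CPM and Neurod6 at 60.4 to 109 CPM, and the neuronal genes Camk2a and Nrgn at 3813 to 4991 and 1538 to 1896 CPM. Control 2 and isolated 3 stood apart from the rest in markers of striatal projection neurons, whose summed level was 3718 and 2706 CPM there and 452 to 1237 CPM elsewhere. Since the samples are bulk tissue, fewer cells of a type and less RNA per cell cannot be told apart.

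The 60 members fell into classes drawn from general knowledge, 51 strictly ciliary, 7 broadly expressed and 2 of no class (Rsph3a and Rsph3b). Their levels were mostly low: 17 members averaged at least 5 CPM and 43 less. Per length, in the authors' FPKM averaged over the 6 libraries, the highest were Cfap36 at 43.1, Cfap20 at 21.3, Rsph3b at 9.78, Cfap74 at 8.19 and Cfap97 at 7.54. Foxj1 stood at 2.18, Tekt1 at 0.75, Ak7 at 0.367 and Hydin at 0.118 FPKM. Members named strictly ciliary were thus not all scarce in this cortex, as Cfap74, Rsph9 (5.73 FPKM) and Drc1 (5.56 FPKM) show.

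The strictly ciliary members were highest in 1 isolated library, isolated 3. It held the highest level of 36 of the 51, where it was the highest library for 16.9% of all genes with a count. Their summed level was 192 CPM in isolated 3, against 135 and 134 CPM in isolated 1 and 2 and 125, 122 and 122 CPM in control 1, 2 and 3. Most of that excess lay in the 42 strictly ciliary members that averaged under 5 CPM, whose sum was 99.8 CPM in isolated 3 and 41 to 54.4 CPM in the other 5 libraries. The sums of isolated 1 and 2, 53.9 and 54.4 CPM, also lay above those of the controls, 50.6, 41 and 48 CPM. The summed level of the broadly expressed members, of which Cfap36, Cfap97 and Cfap20 make up most, was 158 CPM in isolated 3, within the range of 151 to 162 CPM of the controls. Isolated 3 was the highest library for 2 of these 7, Dnaaf5 and the scarce Spag16, the latter at 2.13 times the mean of the other 5 libraries.

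**Figure D1:**
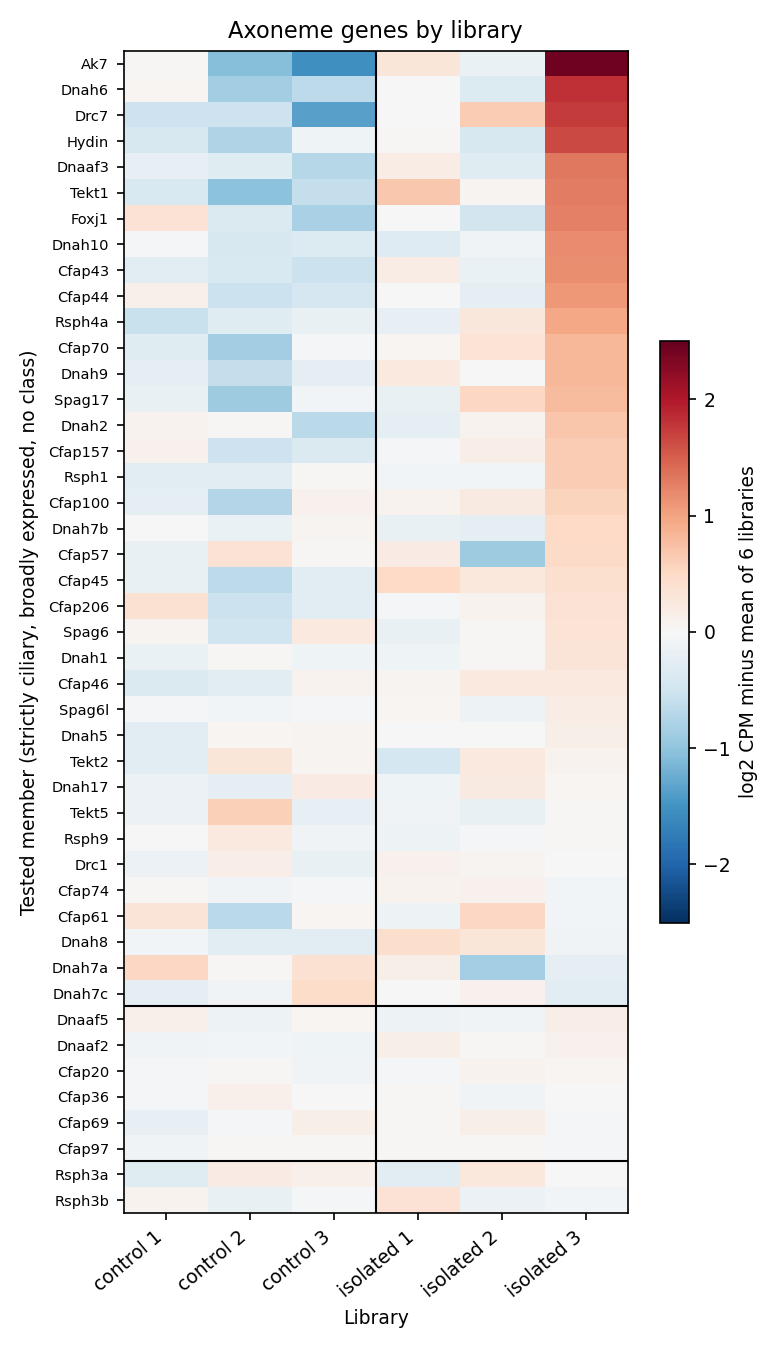
Log2 CPM of the 45 tested members (lines) in each of the 6 libraries (columns), as the difference from the gene's mean over the libraries, with horizontal lines between strictly ciliary members, broadly expressed members and members of no class and a vertical line between the groups. Members are ordered by isolated 3, where Ak7, Dnah6, Drc7 and Hydin have the darkest cells, and the broadly expressed members are pale in every library.

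The comparison of isolated with control libraries was fitted over all genes with edgeR's quasi-likelihood test, which kept 45 of the 60 members after a filter on low counts. No member passed: 0 of 45 had a Benjamini-Hochberg adjusted p under 0.05, as did 0 of 15169 genes (0%), and the smallest adjusted p of a member was 0.999. At an unadjusted p under 0.05 the edgeR fit held 8 members higher in isolated libraries and 0 lower, where 1.52% of all tested genes were higher and 2% lower at that level. Of the 37 strictly ciliary members tested, 31 had a higher mean in isolated libraries and 6 a lower one, where 49.2% of all tested genes were higher, with a median log2 difference of 0.40, against -0.0018 over all tested genes. For the 6 broadly expressed members tested the median was 0.04, with 4 higher and 2 lower. All of these averaged at least 5 CPM. The 9 strictly ciliary members of at least 5 CPM had a median of 0.10, with 6 higher and 3 lower. For the 28 tested ones under 5 CPM it was 0.56, with 25 higher and 3 lower. The medians of the 2 classes thus differ in level as well as in class. A member could pass the filter through the isolated libraries alone, so these counts describe the members that passed. Drc7 was the only 1 of the 45 with fewer than 10 counts in every control. Ak7, Tekt1, Spag17, Dnaaf3 and Cfap61 also had a control under 10 counts, while each of their isolated libraries had at least 10. Of these, Ak7 (13, 5 and 3 counts in the controls) and Tekt1 (12, 7 and 10) were among the 8 members, as was Drc7.

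All 3 isolated libraries lay above all 3 controls in CPM for 12 of the 60 members and below them for 0, against 3.82% above among all genes with a count. Of these 12, Cfap126 and Cfap53 were apart only through library scaling, as their groups tied at 7 and at 4 counts. Cfap221 rested on at most 4 counts in any library. Of the tested members the order held for 7 of 45, or 15.6%, against 4.12% of all tested genes (below, 4.73%). These 7 were Tekt1, Drc7, Cfap45, Cfap43, Cfap70, Dnah9 and the broadly expressed Dnaaf2. Without isolated 3 the same order held for 9 of the 45, or 20%, against 9.47% of all tested genes, and they were the same 7 with Cfap74 and Dnah8.

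Without isolated 3 the median log2 difference of the 37 strictly ciliary members was 0.13 in place of 0.40, with 28 of them higher, and that of the broadly expressed members 0.06. Members higher at an unadjusted p under 0.05 were then 4 in place of 8 (Tekt1, Cfap45, Drc7 and Dnah9), where 1.22% of all genes were, with 0 members at an adjusted p under 0.05 by edgeR. The strictly ciliary median was thus smaller without isolated 3, where the median over all tested genes was -0.0008. The share of all genes higher in that fit was not counted, so the 28 of 37 are given as a description only.

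**Figure D2:**
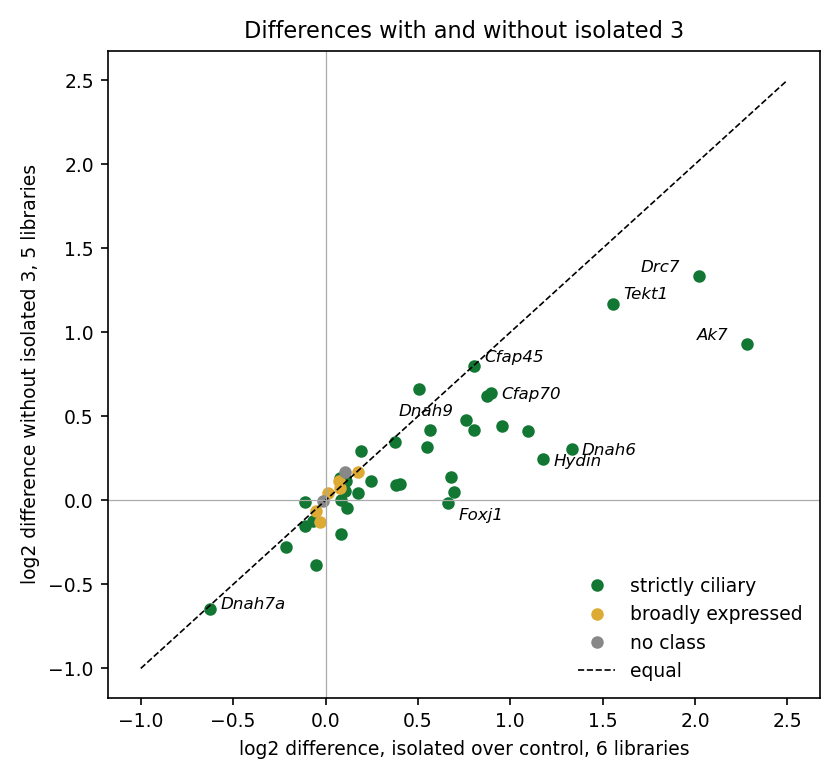
Log2 difference of each tested member, isolated over control, with all 6 libraries (horizontal axis) and without isolated 3 (vertical axis), 1 point a member and coloured by class. Most strictly ciliary members on the right lie under the dashed line of equal values, Foxj1 at about 0 on the vertical axis, while Cfap45 lies on the line at 0.80.

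Foxj1, the forkhead transcription factor of motile ciliogenesis (Entrez gene 15223, chromosome 11 from 116330704 to 116335499, GRCm38), was measured at 6.43, 3.87 and 2.80 CPM in control 1, 2 and 3 and at 5.05, 3.59 and 12.1 CPM in isolated 1, 2 and 3. These levels rest on 51 to 228 counts per library. Isolated 3 was by far the highest, and the other 2 isolated libraries lay within the range of the controls. The group means were 4.37 ± 1.87 and 6.93 ± 4.58 CPM (SD, n = 3), a log2 difference of 0.67 (SE 0.48, edgeR adjusted p = 0.999) with a 95% interval from -0.46 to 1.78. Without isolated 3 that difference was -0.02 (SE 0.35).

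Tekt1 encodes a tektin, a filament protein that lines the inside of the doublet microtubules. It was counted 12, 7 and 10 times in the controls and 27, 17 and 43 times in the isolated libraries, or 0.649, 0.381 and 0.55 CPM against 1.47, 0.924 and 2.29 CPM. The groups did not overlap, and Tekt1 had the smallest unadjusted p among the members, 0.0052, with an edgeR adjusted p of 0.999. Its log2 difference was 1.56 (SE 0.40) and 1.17 (SE 0.37) without isolated 3. The other tektins did not share this: Tekt2 averaged 1.04 ± 0.221 CPM over the controls and 0.989 ± 0.254 CPM over the isolated libraries (SD, n = 3), and Tekt5 6.94 ± 2.29 and 5.97 ± 0.451 CPM, with its highest value, 9.58 CPM, in control 2. Tekt3 and Tekt4 were below the filter, Tekt3 with at most 2 counts in any library. For Tekt2, 20.8% of exon bases lie opposite another gene, and no source used here says whether reads were counted by strand.

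Regulatory factor X (RFX) proteins, which bind X-box motifs in promoters of ciliary genes, act beside Foxj1. GTTGCC, a 6-base part of the X-box, was searched on both strands from 250 bases before to 50 after each annotated start in RefSeq promoters (GRCm38.p6). The whole X-box, which is longer, was not searched. Of the 60 members 52 matched an entry, and 22 of these, or 42.3%, held GTTGCC in at least 1 promoter, against 14.1% of all 27025 genes in that table. Strictly ciliary members held it in 17 of 44 (38.6%) and broadly expressed members in 4 of 6. The forkhead core GTAAACA, which neither contains GTTGCC nor lies within it, was found in 5 of 52 members (Ak7, Cfap20, Cfap43, Dnah17 and Tekt3), or 9.62%, against 4.05% of all genes. A match is a description of the letters in this window and no evidence of binding.

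The promoter of Tekt1, the member with the smallest p, is shown over the 250 bases before 1 of its annotated starts, on the minus strand at chr11:72361883-72362132. Capitals mark GTTGCC and, upstream of it, its reverse complement GGCAAC from a second match on the other strand. Below it stand stretches around matches, each written on the strand on which the match reads GTTGCC and cut at the start site where it is near. Cfap44 (chr16:44394760-44394798, minus strand), Hydin (chr8:110266944-110266976, minus) and Dnah10 (chr5:124725045-124725084, plus) were between 2.49 and 4.11 times as high in isolated 3 as in the mean of the other 5 libraries. Tekt2 (chr4:126325689-126325730, plus), Cfap74 (chr4:155409054-155409099, minus) and Drc1 (chr5:30281362-30281392, minus) were between 0.942 and 1.06 times that mean. GTTGCC thus stood in members that were high in isolated 3 and in members that were not, and Ak7 and Dnah6 were not among the members that held it.
Tekt1: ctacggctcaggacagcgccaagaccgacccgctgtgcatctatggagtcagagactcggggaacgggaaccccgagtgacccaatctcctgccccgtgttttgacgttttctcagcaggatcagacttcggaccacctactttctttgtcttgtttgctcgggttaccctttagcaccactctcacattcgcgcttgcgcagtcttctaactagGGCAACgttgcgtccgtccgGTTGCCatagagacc
Cfap44: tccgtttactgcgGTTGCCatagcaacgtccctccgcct
Hydin: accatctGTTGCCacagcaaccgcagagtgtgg
Dnah10: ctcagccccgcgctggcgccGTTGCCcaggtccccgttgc
Tekt2: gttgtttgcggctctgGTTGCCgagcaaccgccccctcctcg
Cfap74: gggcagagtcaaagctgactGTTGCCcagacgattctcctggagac
Drc1: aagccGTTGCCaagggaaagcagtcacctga

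Among the 12 dynein heavy chain genes, which encode the motors themselves, 11 were tested and 9 of these had a higher mean in isolated libraries. Dnah9, a heavy chain of the outer arm, stood at 4.33, 3.32 and 4.29 CPM in the controls and at 6.02, 5.06 and 9.11 CPM in the isolated libraries, on 61 to 171 counts. The groups did not overlap, with a log2 difference of 0.76 (SE 0.24, edgeR adjusted p = 0.999) and 0.48 (SE 0.18) without isolated 3. Dnah6 and Dnah10, of the inner arms, owed their difference to isolated 3. Dnah6 was at 1.95, 0.98 and 1.15 CPM in the controls, 1.90 and 1.47 CPM in isolated 1 and 2 and 6.92 CPM in isolated 3, with a log2 difference of 1.33 (SE 0.62) that was 0.30 without that library. Dnah10 was at 5.27 CPM in isolated 3 and between 1.69 and 2.22 CPM in the other 5 libraries.

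Dnah11, another outer arm heavy chain, was too scarce to be tested: it had 8.3, 3.19 and 5.25 counts in the controls and 13.4, 9.3 and 46.6 in the isolated libraries. Dnah5, the heavy chain that pairs with Dnah9 and Dnah11 in the outer arm, lay between 4.97 and 6.71 CPM in all 6 libraries. Dnah1 averaged 10.6 ± 0.753 and 12 ± 1.92 CPM, and Dnah2 2.79 ± 0.756 and 3.7 ± 1.27 CPM (SD, n = 3). The near-identical Dnah7a, Dnah7b and Dnah7c share reads, so their split is uncertain. Dnah7a was the member with the most negative log2 difference, -0.62 (SE 0.32, edgeR adjusted p = 0.999), and Dnah7c was highest in control 3 (7.59 CPM) and lowest in isolated 3 (4.53 CPM). Dnah8 and Dnah17, known from the sperm tail, averaged 0.581 and 0.829 CPM and 2.38 and 2.57 CPM in control and isolated libraries.

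Dynein arms are assembled in the cytoplasm with the help of Dnaaf proteins before they enter the cilium. Dnaaf3 was at 0.595, 0.545 and 0.385 CPM in the controls, 0.814 and 0.544 CPM in isolated 1 and 2 and 1.92 CPM in isolated 3. Dnaaf1 had at most 9.39 counts in any library. Dnaaf2 and Dnaaf5, which many tissues express, were steadier. Control libraries held Dnaaf2 at 6.45 ± 0.0802 CPM and isolated ones at 7.29 ± 0.297 CPM (SD, n = 3), with the groups apart and a log2 difference of 0.18 (SE 0.10, edgeR adjusted p = 0.999). Other genes share 38.7% of its exon bases on the same strand and 32.65% on the other strand, so part of its reads is uncertain. Dnaaf5 lay between 8.93 and 11.1 CPM.

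The nexin-dynein regulatory complex links neighbouring doublets. Its gene Drc7 had 7, 7 and 3 counts in the controls and 11, 18 and 42 in the isolated libraries, or 0.378, 0.381 and 0.165 CPM against 0.597, 0.979 and 2.24 CPM. The groups were apart, with a log2 difference of 2.02 (SE 0.59, edgeR adjusted p = 0.999) and 1.33 (SE 0.47) without isolated 3. Drc1 belongs to the same complex but had a higher level per length (5.56 against 0.282 FPKM) and was even, between 12 and 15.4 CPM, with a log2 difference of 0.11 (SE 0.11).

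Radial spokes reach from the doublets to the central pair. Rsph4a, a protein of the spoke head, was at 1.78, 2.12 and 2.31 CPM in the controls and 2.28, 3.26 and 5.33 CPM in the isolated libraries, so that isolated 1 lay just under control 3. Its log2 difference was 0.81 (SE 0.31, unadjusted p = 0.035, edgeR adjusted p = 0.999) and 0.42 (SE 0.24) without isolated 3. Rsph1 was at 2.72 CPM in isolated 3 and between 1.41 and 1.76 CPM in the other 5 libraries. Rsph9, also of the head, averaged 5.47 ± 0.659 and 5.05 ± 0.275 CPM (SD, n = 3) and did not share the high value of isolated 3 (5.33 CPM). Rsph3a and Rsph3b are near-identical copies whose reads can be split wrongly. Rsph6a and Rsph14 were below the filter, with 4 to 11 and 0 to 6 counts.

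**Figure D3:**
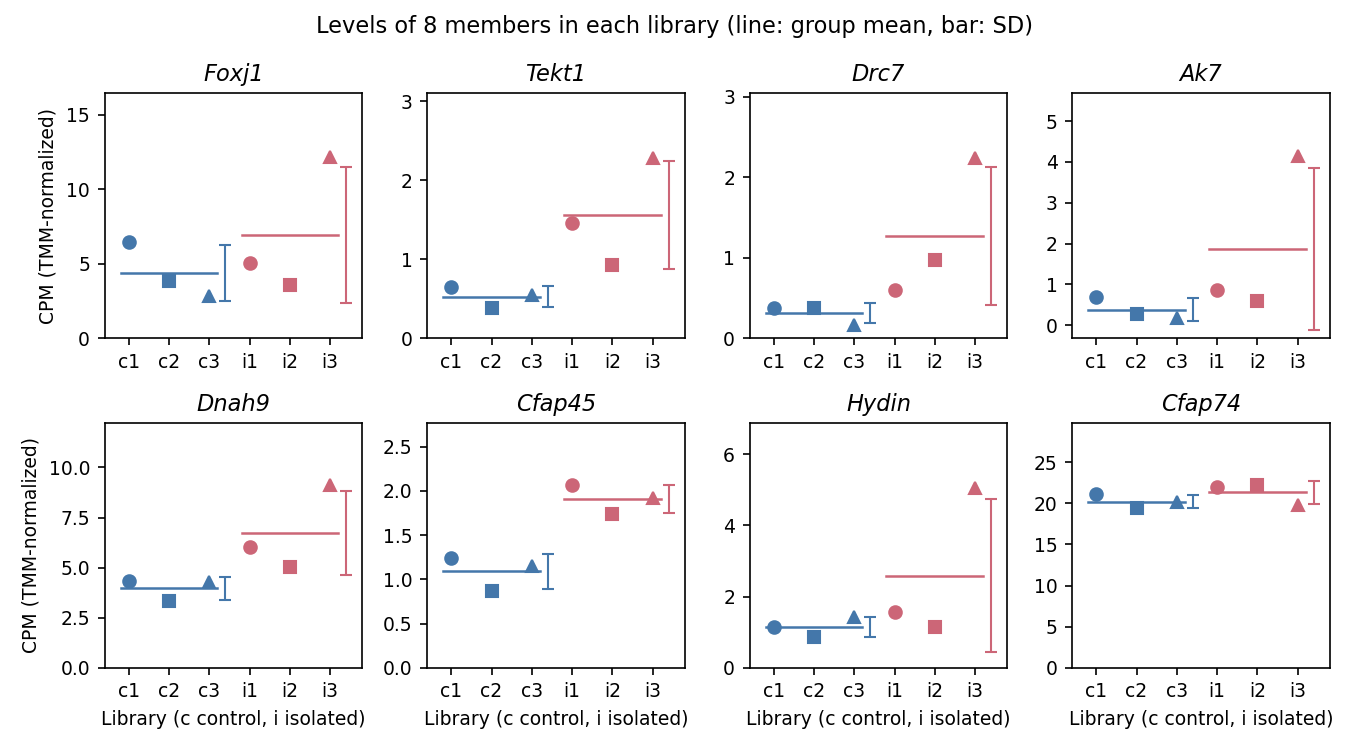
CPM of 8 members in each library (c1 to c3 control, i1 to i3 isolated), 1 point a library, with the group mean as a line and the SD as a bar. Foxj1, Ak7 and Hydin are high in isolated 3 alone, Tekt1, Drc7, Dnah9 and Cfap45 have all isolated points above all control points, and Cfap74 lies between 19.4 and 22.2 CPM throughout.

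The central apparatus, the pair of single microtubules and its projections, had 10 members, of which 8 were tested. Hydin, a giant protein of the central pair whose loss causes hydrocephalus in mice, had 21, 16 and 26 counts in the controls, 29 and 21 in isolated 1 and 2 and 95 in isolated 3. Its level of 5.06 CPM there was 3.21 times the highest of the other 5 libraries, and its log2 difference of 1.18 (SE 0.57) was 0.24 without it. Spag17, of which 15.7% of exon bases lie opposite other genes, was at 0.595, 0.327 and 0.66 CPM in the controls and 0.597, 1.03 and 1.28 CPM in the isolated libraries. Spag16 was untested, with 7.13, 6.33 and 4.8 counts in the controls and 10, 11 and 17 in the isolated libraries, and its groups were apart although it was classed as broadly expressed.

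The other genes of the central apparatus varied less in size. Cfap74, the strictly ciliary member with the highest FPKM, was steady (20.2 ± 0.825 and 21.3 ± 1.38 CPM, SD, n = 3). Cfap46 averaged 2.96 ± 0.532 and 3.85 ± 0.279 CPM, with a log2 difference of 0.38 (SE 0.17). The copies Spag6 and Spag6l, which share reads, averaged 2.07 and 2.25 CPM and 4.61 and 4.89 CPM in control and isolated libraries. Cfap57 spanned 0.326 to 1.01 CPM, with isolated 2 lowest and isolated 3 highest. The scarce Cfap221 had 2, 0 and 1 counts in the controls and 3, 3 and 4 in the isolated libraries, groups that did not overlap.

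Ak7, an adenylate kinase of motile cilia, had the largest log2 difference of the 45 tested members, 2.28 (SE 0.87, unadjusted p = 0.032, edgeR adjusted p = 0.999). It had 13, 5 and 3 counts in the controls, 16 and 11 in isolated 1 and 2 and 78 in isolated 3. Control 1 lay above isolated 2, so the groups overlapped. In isolated 3 its level was 7.97 times the mean of the other 5 libraries, the highest ratio of any tested member, and without that library its log2 difference was 0.93 (SE 0.57).

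Of the remaining Cfap genes, Cfap45 differed between the groups without leaning on isolated 3. It encodes a protein inside the doublet microtubules and was counted 23, 16 and 21 times in the controls and 38, 32 and 36 times in the isolated libraries. In CPM it stood at 1.09 ± 0.194 and 1.91 ± 0.161 (SD, n = 3), a log2 difference of 0.80 (SE 0.21, unadjusted p = 0.0063, edgeR adjusted p = 0.999) and 0.80 (SE 0.26) without isolated 3. Its highest library was isolated 1. Cfap70 was at 0.865, 0.545 and 1.04 CPM in the controls and 1.14, 1.41 and 2.02 CPM in the isolated libraries, with a log2 difference of 0.90 (SE 0.33) and 0.64 without isolated 3.

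Cfap43 and Cfap44, which form a tether of inner arm dyneins, were both high in isolated 3. Cfap43 was at 1.35, 1.25 and 1.10 CPM in the controls and 1.90, 1.47 and 3.83 CPM in the isolated libraries, groups that did not overlap (log2 difference 0.96, SE 0.37, edgeR adjusted p = 0.999). Cfap44 was at 3.24, 2.02 and 2.20 CPM in the controls and 2.99, 2.50 and 6.44 CPM in the isolated libraries, which overlapped. Cfap100 averaged 2.25 ± 0.667 and 3.34 ± 0.582 CPM and Cfap157 1.09 ± 0.281 and 1.6 ± 0.429 CPM (SD, n = 3). Cfap206 and Cfap61 differed by 0.24 (SE 0.29) and 0.19 (SE 0.36) on the log2 scale.

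Several proteins that sit inside the doublets were untested for low counts but also highest in isolated 3. Cfap126 had 7, 6 and 4 counts in the controls and 12, 7 and 36 in the isolated libraries. Cfap52 had 10, 9 and 16 against 10, 8 and 37 counts, and Cfap161 had 7, 5 and 5 against 8, 4 and 21. In Cfap126 isolated 2 equalled the highest control in counts and isolated 1 lay above it, and in the other 2 genes isolated 1 and 2 lay near the controls. Cfap53, Cfap73, Cfap77 and Cfap58 had at most 7 counts in any library, and the groups of Cfap53 touched at 4 counts.

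The broadly expressed members that were tested differed little. Cfap36 averaged 66.2 ± 3.77 CPM over the controls and 63.8 ± 2.64 CPM over the isolated libraries, Cfap97 34.2 ± 1.54 and 34.6 ± 1.17 CPM, and Cfap20, a protein of the doublet's inner junction, 26.8 ± 1.17 and 28.4 ± 1.23 CPM (SD, n = 3). Cfap69, which olfactory neurons also use, averaged 12.6 ± 1.56 and 13.2 ± 0.877 CPM. Their 95% intervals of the log2 difference were narrow, from -0.20 to 0.09 for Cfap36, from -0.14 to 0.17 for Cfap97 and from -0.08 to 0.24 for Cfap20.

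A high level in isolated 3 marked 19 of the 45 tested members, all strictly ciliary, in which it exceeded 1.5 times the mean of the other 5 libraries, as it did for 3.67% of all tested genes. Of strictly ciliary members that averaged at least 5 CPM, 2 of 9 did so, Foxj1 and Dnah9, and of those under 5 CPM, 17 of 28. Cfap74, Drc1, Rsph9, Tekt5 and Dnah5, all strictly ciliary, had ratios from 0.942 to 1.13, and the broadly expressed members tested from 0.958 to 1.15.

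The relation to Foxj1 was described over the 6 libraries for the 36 other tested strictly ciliary members, in log2 CPM and with no p, since every gene shares the same libraries. Pearson's r with Foxj1 was positive for 30 of 36, with a median of 0.56, and at least 0.8 for 9: Cfap44 (r = 0.95, Spearman's rho 0.83), Ak7 (0.94, 0.89), Dnah6 (0.94, 0.83), Dnaaf3 (0.93, 0.94), Cfap43, Dnah10, Dnah2, Spag6l and Cfap157. It rested on isolated 3. Without isolated 3 and control 3, the libraries farthest from the median of Foxj1, 1 of these 9 kept an r of at least 0.8 (Cfap44 at 0.84), and the median over the 36 was 0.09. The near-identical copies Dnah7b and Dnah7a, at 0.73 and -0.01 over the 6 libraries, had an r of 0.85 in the 4 that were left, so that 3 members in all were at or above 0.8. Without isolated 3 alone only Cfap44 did (0.84), while Ak7 and Dnah6 had an r of 0.79 and 0.77. Control 1, the highest control for Foxj1, was also the highest control for Cfap44, Ak7, Dnah6, Dnaaf3 and Cfap43.

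Some members with an unadjusted p under 0.05 had a lower r with Foxj1, though no member passed the adjusted threshold. Rsph4a, Cfap45 and Cfap70 had an r of 0.58, 0.47 and 0.54 over the 6 libraries. Dnah7c ran against it (r = -0.82, rho -0.94). Tekt1 and Drc7, with an r of 0.73 and 0.75, were higher in isolated 1 and 2 than in control 1, although control 1 held more Foxj1 than either.

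**Figure D4:**
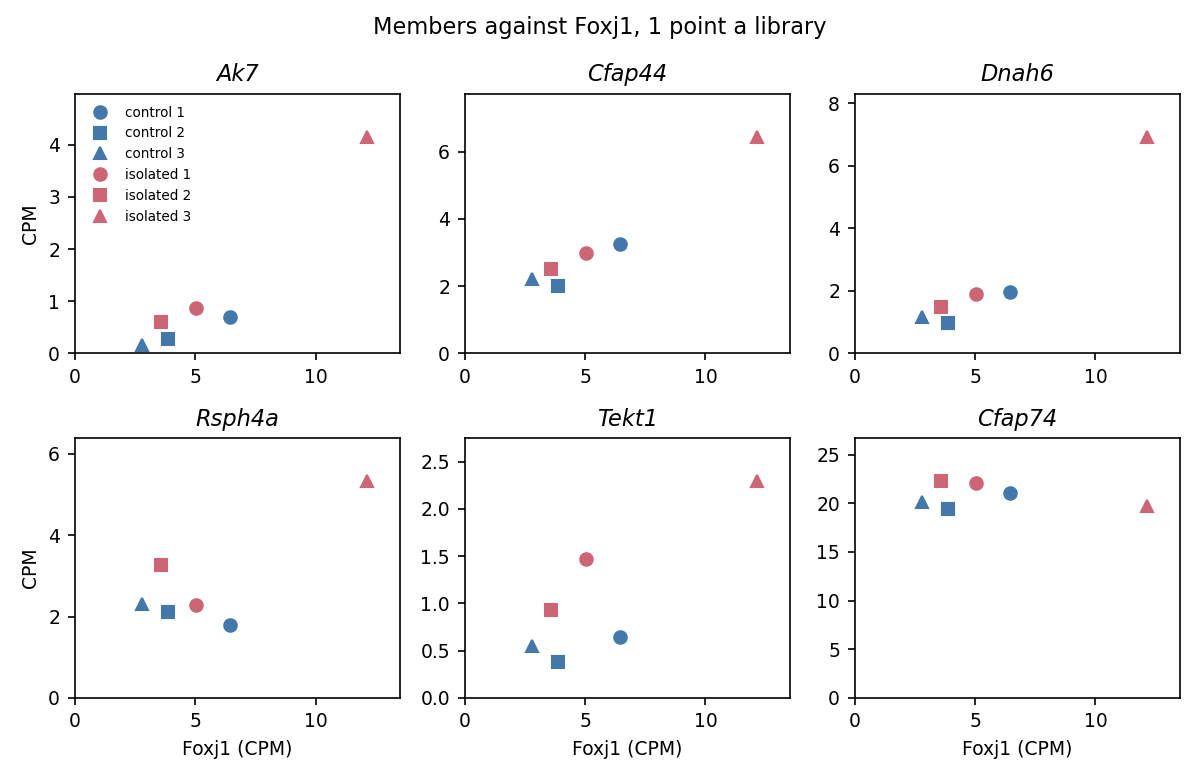
CPM of 6 members (vertical axes) against CPM of Foxj1 (horizontal axes), 1 point a library, controls in blue and isolated libraries in red. Isolated 3 lies alone at 12.1 CPM of Foxj1 and is high for each of the members but Cfap74, and in the other 5 libraries Cfap44, Ak7 and Dnah6 have an r with Foxj1 of 0.84, 0.79 and 0.77 and Rsph4a one of -0.57.

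Other genes of the cilium were read from lists that hold no member. Of 33 tested axonemal genes outside the name rule 21 were higher and 12 lower in isolated libraries by edgeR, with a median log2 difference of 0.06. Isolated 3 was the highest library for 20 of these 33, against 17.2% of all tested genes. The most abundant, Dnal1, Ccdc39 and Gas8, ranged from 129 to 148, 14 to 17 and 13 to 15.5 CPM, with log2 differences of -0.02, -0.14 and 0.11. Ccdc40, a ruler protein of the axoneme named after its values were seen, was at 3.25 CPM in isolated 3 and 1.10 to 1.90 CPM elsewhere.

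Of 11 tested regulators of multiciliation 5 were higher and 6 lower, with a median of -0.09, and isolated 3 was the highest library for 3. Mcidas and Gmnc, which start the multiciliated programme, ranged over 0.811 to 1.32 and 0.599 to 0.989 CPM in the controls and 0.653 to 0.852 and 0.426 to 0.761 CPM in isolated libraries. They were chosen after their values were seen, as were Ccno, Trp73, Rfx2 and Myb of the same list. Ccno, Trp73 and Rfx2 had log2 differences of -0.75 (SE 0.39), 0.62 (SE 0.32) and 0.05 (SE 0.22). Rfx2 and the untested Myb were highest in isolated 3, at 3.04 and 1.23 CPM against at most 2.6 and 0.541 CPM elsewhere. Rfx3, an X-box factor, ranged from 35 to 62.6 CPM in the controls and from 37.3 to 40 CPM in the isolated libraries. The other most abundant genes of that list, the cell cycle factors E2f4 and E2f5, had log2 differences of 0.04 (SE 0.08) and -0.28 (SE 0.12). Genes of the primary cilium and of intraflagellar transport summed to 1538 to 1637 CPM in the controls and 1552 to 1608 CPM in isolated libraries. Of these 36 genes 17 were higher, with a median of -0.0016. The most abundant of them, the kinesin-2 genes Kifap3, Kif3a and Kif3b, had log2 differences of 0.02, 0.01 and -0.09.

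Markers of other ventricular cells were mixed. Of 23 ependymal markers outside the name rule found, 11 were tested and 7 of these were higher, with a median of 0.09. Some of the 23 may also encode axonemal proteins, so the list is not separate from the axoneme. The 23 summed to 38.5 to 42 CPM in the controls and 40.8, 45.5 and 51.6 CPM in isolated 1, 2 and 3. Isolated 3 was the highest library for 5 of the 11 (45.5%), against 17.2% of all tested genes. For 2 of the 11 (18.2%, against 4.12%) all isolated libraries lay above all controls. These were Fam183b and Kif6, named after their values were seen, with log2 differences of 0.89 (SE 0.28) and 0.41 (SE 0.22). The 3 most abundant genes of the list, Acta2, Vwa3a and S100a6, had log2 differences of -0.04 (SE 0.23), -0.08 (SE 0.14) and -0.21 (SE 0.19). Isolated 3 was the highest library for none of them. Acta2 and S100a6 are not specific to ependymal cells, so their levels and the summed level can reflect other cells. Among the untested ones, Ccdc153 was at 0.378, 0.272 and 0.055 CPM in the controls and 0.38, 0.489 and 2.4 CPM in the isolated libraries. Tmem212 was at 0.054 CPM in control 1 and at 0 in control 2 and 3, against 0.488, 0.381 and 1.44 CPM. These genes, chosen after their values were seen, are known markers of ependymal cells.

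The summed level of 20 choroid plexus markers was 12.5 to 19.7 CPM in the controls and 15.3, 16 and 25.5 CPM in isolated libraries, and none of the 20 was at 0 in every library. Ttr, the secreted carrier that dominates choroid plexus RNA, was at 0.973, 2.02 and 1.98 CPM in the controls and 2.44, 2.94 and 3.99 CPM in isolated libraries. The other 2 of the 3 most abundant, Col8a1 and Kl, were highest in isolated 1 (3.58 CPM) and control 2 (4.03 CPM), with log2 differences of 0.31 (SE 0.21) and -0.21 (SE 0.35). Isolated 3 was the highest library for 4 of the 9 tested choroid plexus markers (44.4%), against 17.2% of all tested genes. Of genes chosen after their values were seen, Kcnj13 was lowest in isolated 3 (0.373 CPM). The untested Otx2 and Folr1 were highest there, at 1.07 and 0.586 CPM against at most 0.218 and 0.22 CPM elsewhere. The 15 markers of the subventricular zone and of neuroblasts, the germinal layer under the lateral ventricle, summed to 126 to 150 CPM in control, 136 and 139 CPM in isolated 1 and 2 and 205.5 CPM in isolated 3, the highest library for 11 of them. Of its 3 most abundant genes, Dlx1 was at 29.6 CPM in isolated 3 and 13.9 to 19.95 CPM elsewhere, while Dcx and Prom1 were highest in control 3 (46.3 CPM) and control 2 (18.2 CPM), with 44.95 and 17.3 CPM in isolated 3. Mki67 and Top2a, proteins of dividing cells chosen after their values were seen, were at 6.82 and 4.31 CPM in isolated 3 and at most 2.93 and 1.63 CPM elsewhere. Meningeal fibroblast markers were lowest in isolated 3, at 319 CPM against 409 to 587 CPM, as were the most abundant of them, Ptgds, Igf2 and Col1a2. The abundant striatal markers Ppp1r1b and Pde10a were highest in control 2, then in isolated 3. In those 2 libraries the scarce strictly ciliary members summed to 41 and 99.8 CPM. The part of these cells in the axonemal difference was not tested.

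**Figure D5:**
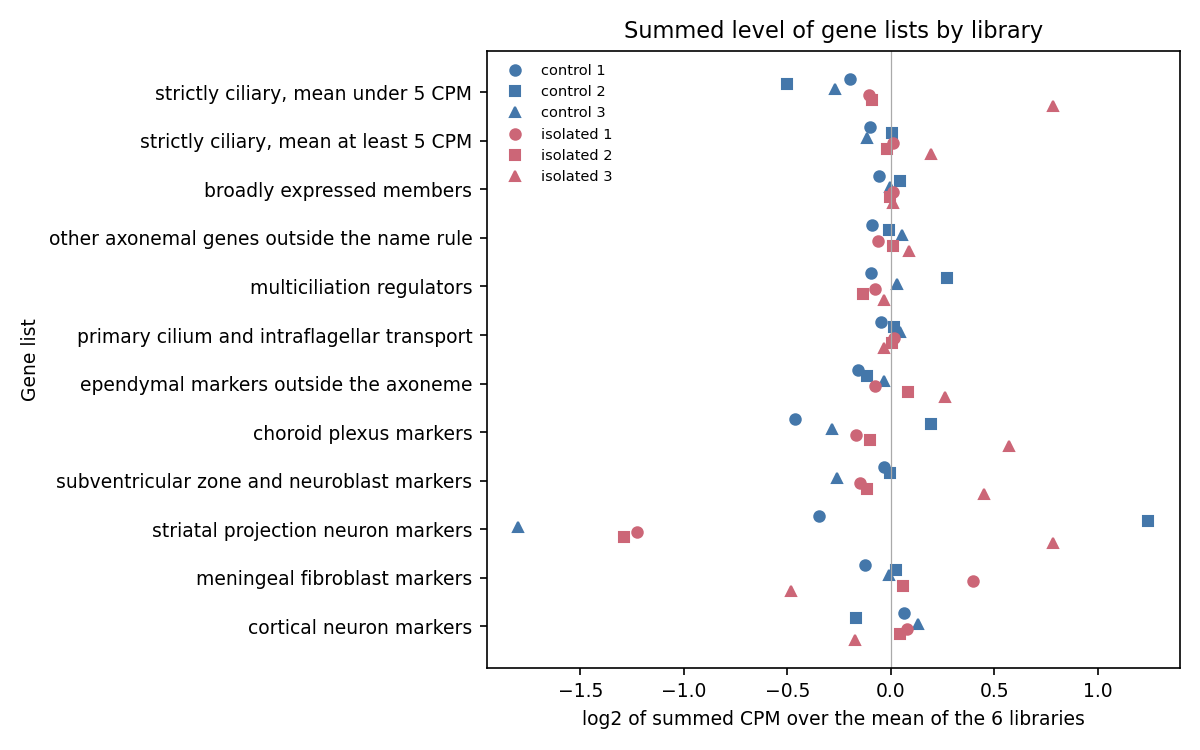
Summed CPM of each gene list in each library, as log2 of its ratio to the mean over the 6 libraries, 1 point a library, controls in blue and isolated libraries in red. Isolated 3 is the rightmost point for the strictly ciliary members under 5 CPM and, by less, for those of at least 5 CPM and the other axonemal genes. It is also rightmost for the ependymal, choroid plexus and subventricular lists, and control 2 for the striatal list.

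Outside the name rule, the 8 tested genes most like the mean log2 CPM of the strictly ciliary members over the 6 libraries were Olig2 (r = 0.99), Adh5, Fryl, Ada, Sypl, Macrod1, Gstp1 and Hmgb2 (r = 0.98). Olig2, a factor of the oligodendrocyte lineage, was at 21.7, 18.3 and 20.1 CPM in the controls and 22, 22 and 33.2 CPM in the isolated libraries. Hmgb2, a chromatin protein abundant in dividing cells, was at 3.03, 2.34 and 3.08 CPM against 4.13, 4.02 and 7.51 CPM. Adh5 and Fryl varied little in size, from 35.1 to 37.8 and from 97.4 to 114 CPM. Among 15169 genes and 6 points high values of r arise readily, and none was tested.

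Under current RefSeq symbols 12 further genes carry axonemal names that the files list under older ones. Cfap65, listed as Ccdc108, was at 5.95, 4.74 and 6.93 CPM in the controls and 7.54, 7.83 and 9.59 CPM in the isolated libraries, apart between the groups (log2 difference 0.50, SE 0.17). Cfap299 and Dnaaf6b were apart too, the former at 0.0541, 0.109 and 0.22 against 0.651, 0.435 and 0.479 CPM. Dnaaf6b was at 0 in every control and at most at 0.163 CPM, where 1 count is worth about 0.0542 CPM. Among all genes with a count, 3.82% had every isolated library above every control. Drc3, of the nexin-dynein complex, was at 7.03 to 11.4 and 10.6 to 11.9 CPM, and Cfap298 and Cfap410, broadly expressed, differed by -0.02 (SE 0.07) and 0.03 (SE 0.08) on the log2 scale.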

How the data were processed

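The authors deposited, per the file headers, 1 table per library with expected counts and FPKM per gene, the latter scaled for gene length and library size. The tools HISAT, Bowtie2 and RSEM and the genome mm10 come from the submitters' processing notes, which give no settings here. Each deposited table lists only genes of at least 0.01 FPKM, and missing genes were set to 0. The entry without a symbol held at most 0.00095% of counts and was left out. A further table was not used, as its 6 columns carry codes that no label gives.

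Expected counts were rounded and fitted with edgeR 4.0.16 (R 4.3.3): filterByExpr (minimum count 10, total 15) left 15169 of 19943 genes. TMM factors lay between 0.991 and 1.012, and the quasi-likelihood test had no covariates and Benjamini-Hochberg adjustment over all tested genes at 0.05. Standard errors come from the fold change and F statistic. The script was tested on simulated data. Exon overlaps use GENCODE M21, promoters RefSeq GRCm38.p6. Alternatives were DESeq2 1.42.0, limma-voom 3.58.1, DESeq2 size factors, no filter, log2(FPKM + 1) and log2(FPKM + 0.1), a replicate block and fewer libraries.

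Members, classes and lists were chosen with earlier results of these data known. Named are Foxj1, members whose groups did not overlap or with an unadjusted p under 0.05, the 12 strictly ciliary and 6 broadly expressed members with the highest mean CPM, the 3 most abundant genes of context lists (1 is not reported here), and the 8 most alike genes. Other members are named for completeness. Ccdc40, Mcidas, Gmnc, Ccno, Trp73, Rfx2, Myb, Fam183b, Kif6, Ccdc153, Tmem212, Kcnj13, Otx2, Folr1, Mki67 and Top2a were chosen after their values were seen.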

Additional observations from a re-analysis of the deposited data

How the results depend on the processing

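No member had an adjusted p under 0.05 in any fit run, the lowest being 0.88 (edgeR, without control 3). Over all genes edgeR gave 0 at an adjusted p under 0.05 and 535 at an unadjusted p under 0.05, and DESeq2 gave 1 (Fkbp5, adjusted p = 0.0068) and 306. The median log2 difference of the strictly ciliary members, 0.404, was 0.101 on log2(FPKM + 1), a scale that shrinks low genes by construction, and 0.104 without control 2 and isolated 3, and ranged from 0.134 (without isolated 3) to 0.575 (without control 1) with 1 library left out. That of the broadly expressed members, 0.043, was 0.072 with no filter on counts, 0.08 without control 2 and isolated 3 and 0.078 for classes split at 5 CPM, and ranged from 0.015 to 0.081 with 1 library left out. The 8 members higher at an unadjusted p under 0.05 became 5 on log2(FPKM + 1), 3 without control 2 and isolated 3, and 4 (without isolated 3) to 13 (without isolated 2) with 1 library left out, 5 without control 2. Over all tested genes the 535 at that p in either direction became 526 on log2(FPKM + 1) and 460 without control 2 and isolated 3. They were 528 without isolated 3, 369 without isolated 2 and 410 without control 2. The 12 members with all isolated above all control libraries became 19 without control 2 and isolated 3 and 14 to 22 with 1 library left out, where fewer libraries have to be in order. Among all tested genes that share rose from 4.12% to 9.47% without isolated 3. It was not counted for the other settings, so the rise is not read as a result about the members. The 9 members with an r of at least 0.8 with Foxj1 numbered 3 without the 2 farthest libraries, of which 1 was among the 9, and 1 without isolated 3. The log2 difference of Foxj1 ranged from -0.019 (without isolated 3) to 1.054 (without control 1) with 1 library left out, and was -0.099 without control 2 and isolated 3. Of 27 members named by the rule and tested, 18 kept their direction in all 14 settings, among them all 8 with an unadjusted p under 0.05. The settings refit the same libraries in which that p was found, so a kept direction is no independent support. The other 8 that changed sign beside Foxj1 had small differences, which ranged with 1 library left out from -0.002 to 0.168 (Dnah5), -0.253 to 0.134 (Dnah7c), -0.198 to 0.216 (Dnah7b), -0.358 to 0.09 (Tekt5), -0.023 to 0.041 (Cfap97), -0.009 to 0.17 (Cfap69) and -0.13 to 0.03 (Dnaaf5). Without control 2 and isolated 3, Tekt5 was at 0.03, Dnah7b at -0.263 and Spag6l at -0.014. Causes other than those given were not tested. The match by RefSeq symbol and the settings tried on the unadjusted and the ordered counts and on the relation to Foxj1 without isolated 3 were chosen after seeing the data.

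Same-numbered libraries did not deviate together (r of 0.03, -0.27 and -0.49), and no control correlated best with its own number, so the numbers were not read as pairs. With a replicate block 0 genes had an adjusted p under 0.05, 331 an unadjusted p under 0.05, and the strictly ciliary median was 0.385 with 8 members higher. Members under 10 counts per library could show only large differences at this depth.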
